A study of Homo sapiens with 8 samples.

Results

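The genes described here are 9 chemokine genes and the cytokine gene IL6, taken from the table of RNA-seq counts by their symbols: CXCL1, CXCL2, CXCL3, CXCL5, CXCL8, CXCL16, CCL2, CCL20, CX3CL1 and IL6. They are 10 of the 58233 gene identifiers in the table. The filter on low counts over all 8 libraries kept 6 of the 10 (CXCL1, CXCL2, CXCL3, CXCL8, CXCL16 and CCL20) among 16549 genes in all, and the other 4 were at or near 0.

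The cells were MCF10A, breast epithelial cells of human origin that form no tumours, carrying the H-Ras oncogene in every group. The clone RBM6-KO1 was derived from them with a Cas9 nickase against RBM6, which encodes an RNA-binding splicing factor. Control and RBM6-KO1 cells were left untreated or were given 5 Gy of ionizing radiation (IR) and left to recover for 12 h, and 2 biological replicates (A and B) were sequenced in each of these 4 groups. All RBM6-KO1 libraries come from a single clone, so loss of RBM6 and other properties of that clone cannot be told apart. The study asked which transcripts depend on RBM6 before and after DNA breaks.

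Chemokines are small secreted proteins that steer cells bearing matching receptors along a gradient. CXCL1, CXCL2, CXCL3, CXCL5 and CXCL8 carry an ELR motif and attract neutrophils through CXCR1 and CXCR2. CCL20 attracts CCR6-bearing lymphocytes and dendritic cells to epithelia, CCL2 attracts monocytes through CCR2, and CXCL16 and CX3CL1 are made as membrane-bound proteins that can be shed. IL6 is a cytokine that signals through IL6R and IL6ST. Damaged and senescent epithelial cells are known to secrete several of these factors, mostly through NF-kB, AP-1 and C/EBP factors at the promoter, and many of the mRNAs turn over quickly through AU-rich elements in the 3′ UTR.

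The promoter sequences are shown because the ELR genes among the 10 that were expressed and CXCL5, which was not, share a motif at nearly the same place. Each is the 150 bases before the RefSeq transcription start in GRCh38.p14, written 5′ to 3′ on the gene's strand, with the matches to 3 motifs in capitals. The motifs were GGAATTTCC, TGACTCA (an AP-1 site) and the NF-kB consensus, all searched on both strands and chosen after these promoters had been read. Promoters were in the sequence table for 7 of the 10 genes.
CXCL1 promoter (chr4:73869243-73869392, plus strand): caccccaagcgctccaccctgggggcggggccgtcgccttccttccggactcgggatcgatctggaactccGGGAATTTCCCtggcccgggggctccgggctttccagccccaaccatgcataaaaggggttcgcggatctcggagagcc
CXCL2 promoter (chr4:74099196-74099345, minus strand): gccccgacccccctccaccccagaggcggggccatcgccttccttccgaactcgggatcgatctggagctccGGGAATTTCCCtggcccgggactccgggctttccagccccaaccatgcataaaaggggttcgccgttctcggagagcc
CXCL3 promoter (chr4:74038690-74038839, minus strand): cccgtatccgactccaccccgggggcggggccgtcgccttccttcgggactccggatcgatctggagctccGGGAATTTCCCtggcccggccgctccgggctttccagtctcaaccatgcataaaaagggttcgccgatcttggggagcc
CXCL5 promoter (chr4:73998678-73998827, minus strand): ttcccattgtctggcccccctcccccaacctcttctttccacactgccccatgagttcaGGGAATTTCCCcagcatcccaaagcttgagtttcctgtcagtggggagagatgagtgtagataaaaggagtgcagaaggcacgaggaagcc
CXCL8 promoter (chr4:73740419-73740568, plus strand): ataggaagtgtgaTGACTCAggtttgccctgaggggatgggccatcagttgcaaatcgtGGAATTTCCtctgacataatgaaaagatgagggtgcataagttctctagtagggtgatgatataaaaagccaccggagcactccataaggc
CCL20 promoter (chr2:227813692-227813841, plus strand): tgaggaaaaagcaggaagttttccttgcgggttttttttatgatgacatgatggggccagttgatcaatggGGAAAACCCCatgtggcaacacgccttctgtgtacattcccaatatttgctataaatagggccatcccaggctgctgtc

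GGAATTTCC was found in the promoters of all 5 listed ELR genes: at bases -78 to -70 from the start in CXCL1 and CXCL3, -77 to -69 in CXCL2, -90 to -82 in CXCL5 and -91 to -83 in CXCL8. Of 35116 promoter windows, 0.461% held it. The NF-kB consensus, present in 5.91% of windows, overlapped this motif in CXCL1, CXCL2, CXCL3 and CXCL5. It was also matched at -79 to -70 in CCL20 and at -73 to -64 in IL6, whose sequence is not shown. TGACTCA, present in 4.95% of windows, was found only in CXCL8 among the 7 promoters, at -137 to -131. The length of the 35116 windows is not given here and may differ from that of the sequences shown. Their shares are therefore a rough background only. A match describes the letters only, since binding was not measured in these libraries.

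Libraries held between 15355281 and 29832009 counts in genes, and control cells after IR held the deepest library (B). A count of 0 allows up to 3 counts, which is 0.0965 to 0.204 normalized CPM (counts scaled to the library's size and, with TMM, to its composition), and this limit covers counting error only. The targeted gene RBM6 stood at 66.8 and 68.7 normalized CPM in control libraries A and B without IR and at 54.5 and 48.9 with it, against 61.4 and 63.1 in the RBM6-KO1 pair without IR and 44 and 33.9 with it. Its mRNA level was therefore lower in RBM6-KO1 cells by less than 2-fold, with a log2 fold change of -0.14 ± 0.15 (SE, n = 2 libraries per group) untreated and -0.40 ± 0.20 after IR, so the counts do not check the knockout. The study itself checked the clone at the DNA and protein levels, by sequencing and western blot. A gene was called when edgeR's quasi-likelihood test gave it a Benjamini-Hochberg adjusted p under 0.05 over all genes tested and its change was at least 2-fold. Where libraries of different groups are said not to overlap, the share of all genes separated in the same way is not given here. Such separation is therefore a description only.

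**Figure D1:**
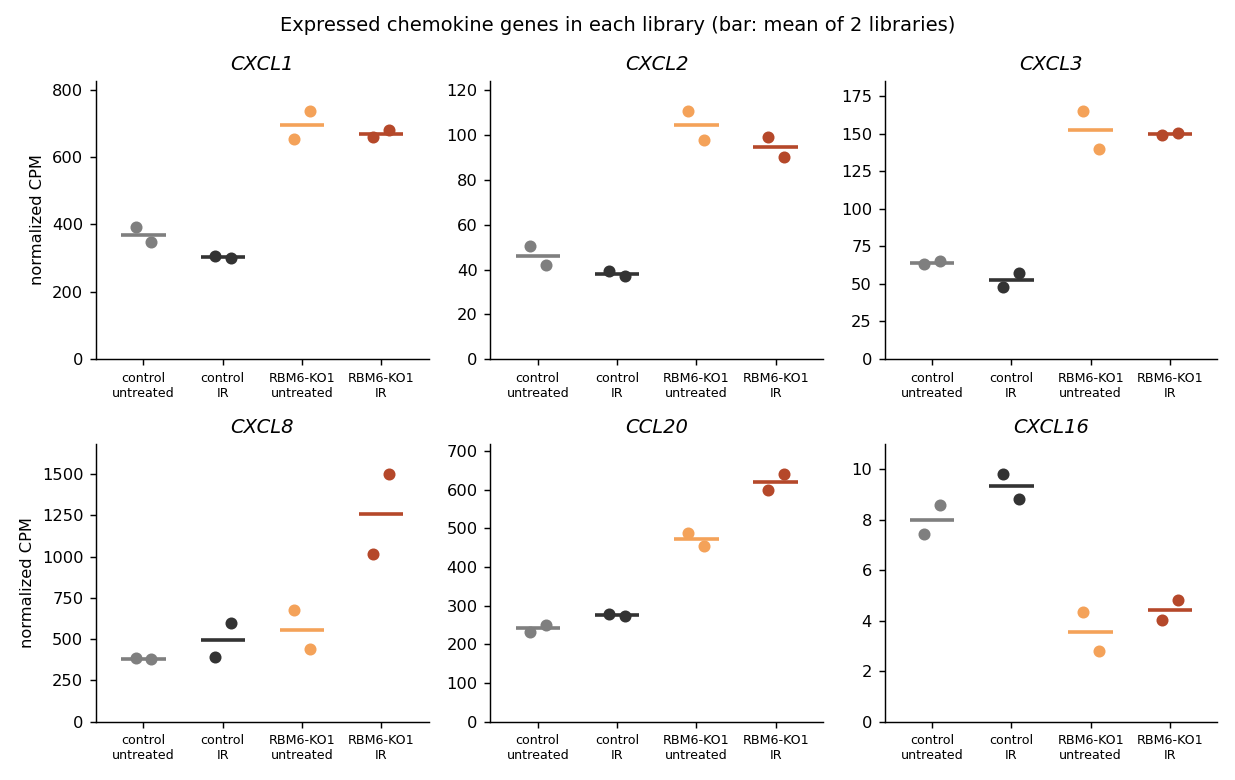
Normalized CPM (y axis, from 0, a separate scale for each gene) of the 6 expressed genes in every library, by group (x axis), with dots for the 2 libraries of a group and a bar for their mean. For CXCL1, CXCL2, CXCL3 and CCL20 all 4 RBM6-KO1 libraries lie above all 4 control libraries, for CXCL16 all 4 lie below them, and CXCL8 is highest in the RBM6-KO1 libraries after IR, at 1013 and 1503. The share of all genes separated in this way is not given.

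In untreated cells, RBM6-KO1 libraries held 2.24-fold as much CXCL2 mRNA and 2.35-fold as much CXCL3 mRNA as control libraries, and 2.25-fold less CXCL16 mRNA. Of the 6 genes tested, 2 were called higher (CXCL2 and CXCL3), where 1.16% of all 15556 genes tested were called higher. A further 1, CXCL16, was called lower, where 1.97% of all genes were called lower. CXCL1 and CCL20 passed the adjusted p but fell short of 2-fold, which made 4 genes higher by the adjusted p alone, beside 2.38% of all genes. The median log2 fold change of the 6 was 0.93, beside 0.01 over all genes. In bulk RNA such as this, fewer cells that express a gene and less RNA per cell cannot be told apart.

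CXCL1, a neutrophil chemokine (ENSG00000163739, chromosome 4, 73869393 to 73871308, plus strand), stood at 391 and 347 normalized CPM in control libraries A and B without IR and at 305 and 300 with it, against 652 and 737 in the RBM6-KO1 pair without IR and 660 and 680 with it. The RBM6-KO1 and control libraries did not overlap, and the IR libraries of RBM6-KO1 cells lay within the range of the untreated ones. Untreated, the log2 fold change from control to RBM6-KO1 cells was 0.90 ± 0.14 (SE, n = 2 per group), or 1.87-fold, with an adjusted p of 0.000557 from edgeR. After IR, CXCL1 was 2.22-fold higher in RBM6-KO1 cells and was called (log2 fold change 1.15 ± 0.14, adjusted p = 0.0156).

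CXCL2 (ENSG00000081041, chromosome 4, 74097040 to 74099196, minus strand), which encodes a close relative of CXCL1, stood at 50.6 and 41.8 normalized CPM in control libraries A and B without IR and at 39.5 and 36.9 with it, against 111 and 98 in the RBM6-KO1 pair without IR and 99.1 and 90.1 with it. Every RBM6-KO1 library was above every control library. CXCL2 rose in RBM6-KO1 cells in both settings, with log2 fold changes of 1.16 ± 0.16 untreated (adjusted p = 0.000139 from edgeR) and 1.32 ± 0.16 after IR (adjusted p = 0.0153).

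CXCL3 (ENSG00000163734, chromosome 4, 74036589 to 74038807, minus strand), the other member of this trio, stood at 63 and 65.4 normalized CPM in control libraries A and B without IR and at 48.2 and 57.5 with it, against 165 and 139 in the RBM6-KO1 pair without IR and 149 and 150 with it. The groups of the 2 genotypes did not overlap. Among the 6 genes tested, CXCL3 had the largest log2 fold change between genotypes in the untreated cells and after IR, 1.24 ± 0.15 (adjusted p = 4.69e-05 from edgeR) and 1.51 ± 0.17 (adjusted p = 0.012).

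CXCL1, CXCL2 and CXCL3 are near copies of each other, so reads could be shared between them. Their coding sequences were identical at 93.5% of aligned bases between CXCL1 and CXCL2, 90.7% between CXCL1 and CXCL3 and 94.4% between CXCL2 and CXCL3, while CXCL8 and CXCL1 were identical at 64.4%. At most 5.63% of the 50-base stretches of any transcript of the trio occurred in another of the 3, and 0% of the 150-base stretches did. The reads were pairs of 150 bases, and how reads that matched several genes were counted is not given in the sources used here.

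CXCL8 encodes interleukin-8, the main neutrophil chemokine of human cells (ENSG00000169429, chromosome 4, 73740519 to 73743716, plus strand). It stood at 383 and 381 normalized CPM in control libraries A and B without IR and at 394 and 600 with it, against 674 and 439 in the RBM6-KO1 pair without IR and 1013 and 1503 with it. The RBM6-KO1 libraries after IR were above the other 6, while replicates within 3 of the 4 groups differed widely. Untreated, the log2 fold change between genotypes was 0.53 ± 0.17 (adjusted p = 0.0827 from edgeR), and it was 0.17 without RBM6-KO1 library A and 0.82 without library B. After IR the value was 1.34 ± 0.27, or 2.54-fold, which missed the threshold (adjusted p = 0.0771 from edgeR). That comparison passed with DESeq2 (adjusted p = 4.87e-05), with DESeq2 size factors (0.041), with upper-quartile normalization (0.0491) and with all 8 libraries in 1 edgeR fit (0.0194), but not with at least 10 counts in every library (0.114) or without RBM6-KO1 library B (log2 fold change 1.03, adjusted p = 0.121).

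CCL20 (ENSG00000115009, chromosome 2, 227805739 to 227817564, plus strand), the epithelial ligand of CCR6, stood at 232 and 251 normalized CPM in control libraries A and B without IR and at 278 and 274 with it, against 488 and 455 in the RBM6-KO1 pair without IR and 600 and 642 with it. The 4 groups were in 4 separate ranges, lowest in untreated control cells and highest in RBM6-KO1 cells after IR. Untreated, CCL20 was 1.94-fold higher in RBM6-KO1 cells (log2 fold change 0.95 ± 0.14, adjusted p = 0.000261 from edgeR), which is just under the 2-fold limit. After IR it was 2.26-fold higher and called (log2 fold change 1.18 ± 0.15, adjusted p = 0.0154).

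CXCL16 (ENSG00000161921, chromosome 17, 4733533 to 4739928, minus strand), a transmembrane chemokine that binds CXCR6, went the other way and at a far lower level. It stood at 7.42 and 8.57 normalized CPM in control libraries A and B without IR and at 9.83 and 8.84 with it, against 4.33 and 2.79 in the RBM6-KO1 pair without IR and 4.02 and 4.84 with it. All RBM6-KO1 libraries were below all control libraries. CXCL16 fell in untreated RBM6-KO1 cells, at -1.17 ± 0.28 on the log2 scale (adjusted p = 0.0175 from edgeR), and this call was lost without RBM6-KO1 library B (-0.89, adjusted p = 0.0865). After IR the value was -1.06 ± 0.24, which missed the threshold (adjusted p = 0.104 from edgeR). It passed with no filter (adjusted p = 0.0141), with all 8 libraries in 1 fit (0.0472) and without control library B (0.0185). CXCL16 overlaps ZMYND15 and MED11 on the opposite strand, over 96 and 76 of its 2793 exonic bases, and whether the counting used strand is not given in the sources used here, so a few of its reads could belong to those genes.

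Between irradiated cells, 4 of the 6 genes were called higher in the knockout (CXCL1, CXCL2, CXCL3 and CCL20), where 0.353% of all 15587 genes tested were called higher. None was called lower, where 0.815% of all genes were, and CXCL16 was below control with an unadjusted p of 0.0025 from edgeR. By the adjusted p alone the same 4 genes passed, beside 0.372% of all genes. DESeq2 called 5 of the 6, adding CXCL8. The median log2 fold change of the 6 was 1.25, beside 0.02 over all genes. The untreated and irradiated genotype comparisons share no library.

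**Figure D2:**
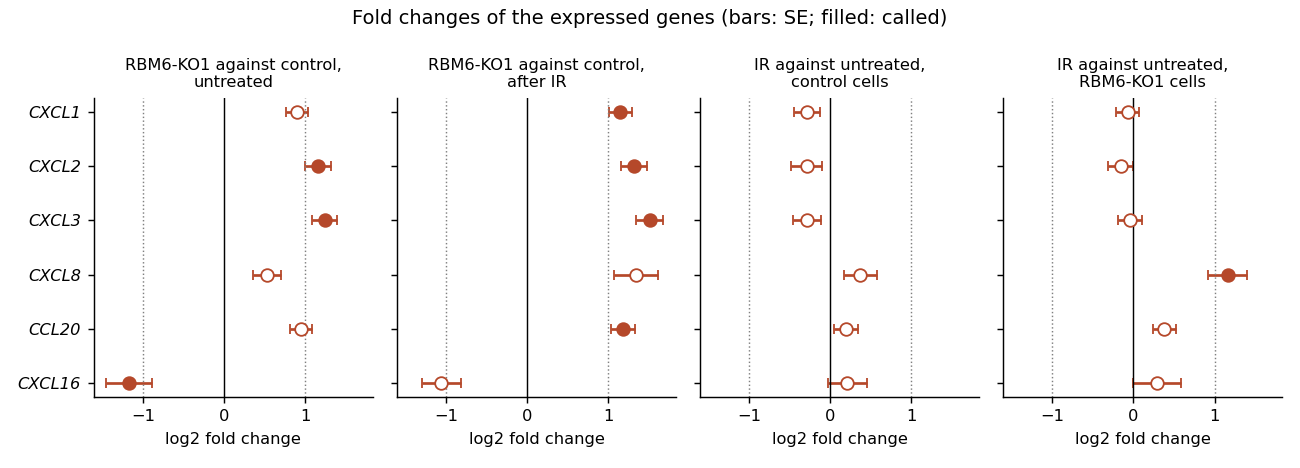
Log2 fold changes (x axis) of the 6 expressed genes (y axis) in the 4 comparisons, with bars for the SE, filled dots for called genes and dotted lines at 2-fold. Between genotypes CXCL1, CXCL2, CXCL3, CXCL8 and CCL20 lie to the right of 0 and CXCL16 to the left, and in the IR comparisons the only filled dot is CXCL8 in RBM6-KO1 cells, at 1.16.

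IR itself moved these genes little at 12 h, except CXCL8 in RBM6-KO1 cells. With edgeR, 0 of the 6 genes were called in control cells, where 1.68% of the 15412 genes tested were called higher and 1.91% lower. With DESeq2 0 were called as well, and at an unadjusted p under 0.05 edgeR had 0. CXCL1, CXCL2 and CXCL3 each had a log2 fold change of -0.29 after IR in control cells, with both irradiated libraries below both untreated ones. None of them had an unadjusted p under 0.05 from edgeR, so this separation does not show a change. CXCL8 had 0.37 ± 0.20 (adjusted p = 0.262 from edgeR), and this was 0.03 without irradiated library B and 0.66 without irradiated library A. CCL20 and CXCL16 had 0.19 ± 0.15 and 0.21 ± 0.24.

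In RBM6-KO1 cells, CXCL8 rose after IR and was the 1 gene of the 6 called, where 1.13% of the 15598 genes tested were called higher and 1.97% lower. Its log2 fold change was 1.16 ± 0.24, or 2.23-fold (adjusted p = 0.0307 from edgeR). Without untreated library B it was 0.89, and without irradiated library B 0.86, both under 2-fold, with adjusted p of 0.0109 and 0.0213 from edgeR. CCL20 had 0.38 ± 0.14 (adjusted p = 0.115 from edgeR), with both irradiated libraries above both untreated ones. CXCL1, CXCL2 and CXCL3 had values of -0.07 ± 0.14, -0.16 ± 0.15 and -0.04 ± 0.15, with overlapping libraries. CXCL16 had 0.29 ± 0.30.

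The difference in IR response between the genotypes was tested over all 8 libraries. None of the 6 genes passed, with an adjusted p of 1 from edgeR for each, and 0% of the 16549 genes tested were called. Unadjusted, 306 genes had a p under 0.05, among them 1 of the 6, CXCL8, whose interaction term was 0.80 ± 0.36 (log2) at an unadjusted p of 0.0484 from edgeR. DESeq2 also called 0 genes. The IR response of CXCL8, called in RBM6-KO1 cells and not in control cells, is therefore not shown to differ between them.

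The levels of the chemokine mRNAs are compared per length, and their order depends in part on the length used. On the scale of mean normalized CPM per kb of the canonical transcript, the levels in untreated control cells were 314 for CXCL1, 289 for CCL20, 233 for CXCL8, 59.7 for CXCL3, 41.4 for CXCL2 and 3.44 for CXCL16. The libraries of CXCL1 and CCL20 overlapped on this scale, and the other neighbours in that order did not. In irradiated RBM6-KO1 cells the levels per kb were 766 for CXCL8, 745 for CCL20, 571 for CXCL1, 139 for CXCL3, 84.9 for CXCL2 and 1.91 for CXCL16, and only CXCL8 and CCL20 overlapped. Per kb of all annotated exons, untreated control cells had 33.1 for CXCL2 and 28.9 for CXCL3, the reverse of their order above. On that scale irradiated RBM6-KO1 cells had 492 for CXCL1, 486 for CXCL8 and 390 for CCL20, so the order of these 3 turned as well.

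The remaining genes were at the edge of detection. CXCL5, an ELR chemokine, had 0 and 0 counts in the control libraries without IR and 3 and 2 with it, and 6 and 2 in the RBM6-KO1 libraries without IR and 1 and 2 with it. IL6 had 8 and 3 counts in the control libraries without IR and 0 and 5 with it, and 0 and 4 in both pairs of RBM6-KO1 libraries. CX3CL1 had a single count in library B of each untreated group and 0 in the other 6 libraries, and CCL2 had 0 in all 8 libraries. The filter left these 4 genes out of the edgeR tests. With no filter, CXCL5, IL6 and, except between irradiated genotypes, CX3CL1 were tested, and none had an adjusted p under 0.05. The lowest was 0.342 from edgeR, for CXCL5 between untreated genotypes. Unadjusted, CXCL5 had a p of 0.036 between untreated genotypes and 0.0475 for the interaction, both from edgeR with no filter. CCL2, without a count, was not tested. A difference between the groups was thus not shown for these 4 genes, and counts this low do not exclude one. IL6 also overlaps IL6-AS1 and STEAP1B on the opposite strand, over 428 and 46 of its 4321 exonic bases.

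CXCL1, CXCL2, CXCL3, CXCL5 and CXCL8 lie in a cluster of CXC chemokine genes on chromosome 4, 359 kb from the start of CXCL8 to the end of CXCL2 with 16 annotated genes and pseudogenes. Of these, 5 were tested in untreated cells: CXCL8, CXCL1, PF4, CXCL3 and CXCL2. PF4, which encodes platelet factor 4 and lies between CXCL1 and CXCL3, stood at 1.66 and 1.93 normalized CPM in control libraries A and B without IR and at 1.81 and 1.29 with it, against 8.09 and 9.92 in the RBM6-KO1 pair without IR and 11.6 and 9.15 with it. It rose in RBM6-KO1 cells, at log2 fold changes of 2.30 ± 0.29 untreated (adjusted p = 6.96e-05 from edgeR) and 2.79 ± 0.30 after IR (adjusted p = 0.012). All 5 expressed genes of the cluster thus had values above 0 in both settings, with the chromosome 4 median at 0.08 over 599 genes untreated and 0.10 over 603 genes after IR. The other 11 had at most 7 counts in any library.

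**Figure D3:**
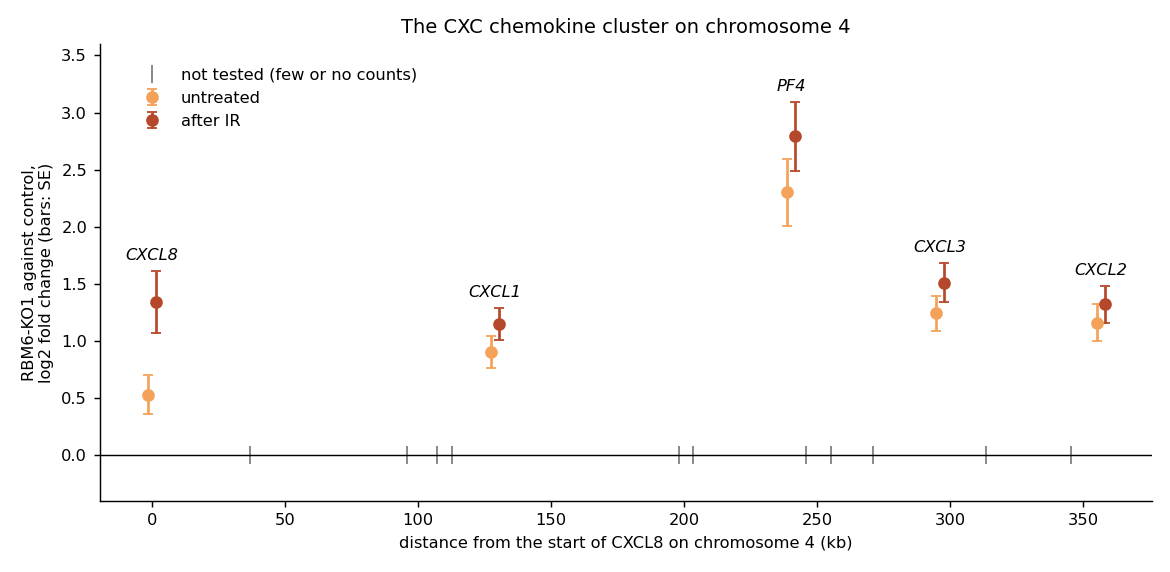
Log2 fold change between RBM6-KO1 and control cells (y axis, bars for the SE) of the expressed genes of the cluster, by distance from the start of CXCL8 in kb (x axis), untreated and after IR, with grey ticks for genes that were not tested. The 5 tested genes all lie above 0, PF4 highest at 2.30 untreated and 2.79 after IR, and genes without a value lie between them.

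Few other chemokine genes were expressed. Of 35 looked for, inside and outside the cluster, 18 had 0 counts in all 8 libraries, 13 had a highest count of 1 to 5, and 4 went higher (PF4, CXCL14, CCL26 and CCL28). Between genotypes, 2 of the 35 were tested untreated and 3 after IR. PF4 was the single called gene among them, where 1.16% and 0.353% of all genes were called higher. The levels of CXCL1, CXCL2 and CXCL3 moved closely together over the 8 libraries, with Pearson's r of log2 CPM from 0.97 to 0.98, while r was 0.59 for CXCL8 and CXCL1 and -0.96 for CXCL16 and CXCL1. These describe 8 libraries in 4 groups, so they carry the group differences above. Among 10736 genes compared, those whose pattern was most like that of CXCL8 included SULT1B1 (r = 0.994), TNFRSF10D (0.970), SLC1A1 (0.968) and GCLC (0.967). TNFRSF10D, which encodes a decoy receptor for TRAIL, had mean levels of 97.4 normalized CPM in untreated control cells and 249 in irradiated RBM6-KO1 cells.

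The 3′ UTRs are shown because AU-rich elements there mark short-lived cytokine mRNAs. The windows are the 30 bases of each GENCODE canonical 3′ UTR with the most ATTTA pentamers, 5′ to 3′, with the pentamers in capitals.
CXCL1 window: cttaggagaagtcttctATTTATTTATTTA
CXCL2 window: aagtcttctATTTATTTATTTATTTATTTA
CXCL3 window: ttacgagggttctacttATTTAtgtATTTA
CXCL8 window: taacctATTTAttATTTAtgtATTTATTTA
CCL20 window: ttaaagttaaactgtattttatgttATTTA
CXCL16 window: gccactgccctctcttaggcccctcATTTA

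ATTTA occurred 7.77 times per kb of 3′ UTR in CXCL1, 13.97 in CXCL2, 10.4 in CXCL3, 5.51 in CXCL5, 7.19 in CXCL8, 6.34 in CCL20 and 14.1 in IL6. All 7 values exceed 4.78 per kb, the 90th percentile of 12725 expressed coding genes, whose median was 1.73. CXCL16, the gene that was lower in RBM6-KO1 cells, had 1.03 per kb, and CCL2 and CX3CL1 had 2.66 and 0.994. Per kb, the 5 expressed genes with values above 0 between genotypes were thus all above that percentile and the gene below 0 was not. This is a description of 6 genes. By count CCL20 had only 3 pentamers, in a 3′ UTR of 473 bases, and its window held 1, as did that of CXCL16. CXCL1, CXCL2, CXCL3 and CXCL8 had 6 to 10, and 33.8% of the expressed coding genes had at least 5. PF4 was not part of this count. A link between pentamers and the genotype values was not tested. Of 10 genes for AU-rich element binding proteins, all were tested and 0 were called in any of the 5 tests with edgeR or DESeq2. With edgeR, 0.353% to 1.97% of all genes were called in a given direction of the genotype and IR comparisons. At such shares a count of 0 among 10 does not set the list apart. By the adjusted p alone 1 passed in each IR comparison, both under 2-fold and named here after their values were seen. These were ZFP36L2 in control cells (0.91 ± 0.18, adjusted p = 0.0192 from edgeR) and ZFP36 in RBM6-KO1 cells (0.79 ± 0.16, adjusted p = 0.0305). The interaction term of ZFP36 was 0.51 ± 0.21 at an unadjusted p of 0.0346 from edgeR, and it did not pass after adjustment. At an unadjusted p under 0.05, edgeR had 1 of the 10 between untreated genotypes and 0 between irradiated ones. For IR it had 3 in control cells and 6 in RBM6-KO1 cells. The share of all genes at that threshold is not given here, so whether these counts are unusual is not shown.

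**Figure D4:**
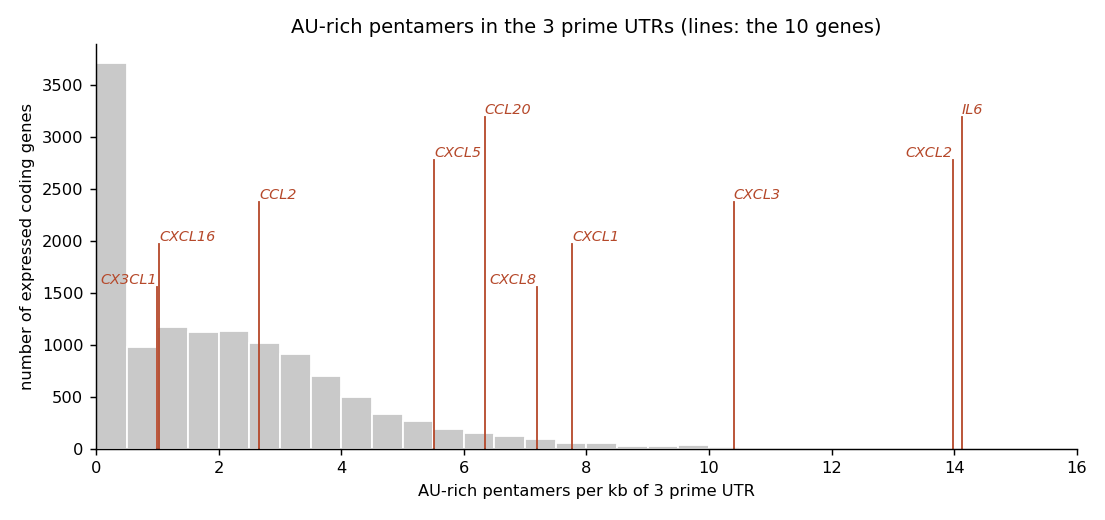
Number of expressed coding genes (y axis) by AU-rich pentamers per kb of 3′ UTR (x axis, bins of 0.5; 28 genes above 16 are not drawn), with a line for each of the 10 genes. CXCL1, CXCL2, CXCL3, CXCL5, CXCL8, CCL20 and IL6 lie in the right tail, from 5.51 to 14.1, and CXCL16, CCL2 and CX3CL1 in the body, from 0.994 to 2.66.

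Receptors for these chemokines were nearly absent from the cells. CXCR1 and CXCR2, which bind the ELR chemokines, had at most 4 and 1 counts in any library, CCR2 at most 3, CX3CR1 at most 1, and CCR6 0. CXCR6, the receptor of CXCL16, had at most 16. ACKR1, an atypical receptor that binds many of these chemokines without signalling, was expressed, at 41.4 and 46.7 normalized CPM in control libraries A and B without IR and at 24.6 and 24.7 with it, against 18.6 and 23.7 in the RBM6-KO1 pair without IR and 13.2 and 10.9 with it. It fell in untreated RBM6-KO1 cells (log2 fold change -1.08 ± 0.18, adjusted p = 0.00111 from edgeR), and after IR the value was -1.03 ± 0.21 (adjusted p = 0.0794), where DESeq2 called it.

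The genes for NF-kB subunits and inhibitors differed little between the genotypes. All 18 of the list were tested, with a median log2 fold change of 0.11 untreated and 0.12 after IR. With edgeR, 0 were called in any of the 5 tests. Of all genes, 1.16% were called higher and 1.97% lower between untreated genotypes, and 0.353% and 0.815% after IR. At such shares a count of 0 among 18 does not set the list apart. DESeq2 called 0 of the 18 as well. At an unadjusted p under 0.05 edgeR had 3 between untreated genotypes and 2 after IR, all higher in RBM6-KO1 cells. The share of all genes at that unadjusted threshold is not given here. By the adjusted p alone 2 passed in untreated cells, named here after their values were seen: TNFAIP3, an NF-kB target and inhibitor, at 0.69 ± 0.18 (adjusted p = 0.0305 from edgeR) and BIRC3 at 0.56 ± 0.16 (adjusted p = 0.0466). Levels of mRNA do not show whether NF-kB was active.

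Of 13 genes for AP-1 and C/EBP factors, 12 were tested and FOS, an AP-1 subunit, was the single called gene. It was called lower between untreated genotypes, where 1.97% of all genes were. It was called higher after IR in RBM6-KO1 cells, where 1.13% of all genes were. FOS stood at 37.8 and 35.9 normalized CPM in control libraries A and B without IR and at 63.8 and 67.9 with it, against 16.6 and 15.1 in the RBM6-KO1 pair without IR and 34 and 40.6 with it. It fell in untreated RBM6-KO1 cells (log2 fold change -1.23 ± 0.18, adjusted p = 0.000338 from edgeR) and rose after IR in RBM6-KO1 cells (1.22 ± 0.18, adjusted p = 0.0141). In control cells its IR value was 0.83 ± 0.17, which passed the adjusted p (0.0221 from edgeR) but was under 2-fold. The interaction term of FOS was 0.40 ± 0.22 at an unadjusted p of 0.103 from edgeR. A difference in its IR response between the genotypes is therefore not shown.

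Other secreted cytokines varied in direction. Of 17 in the list 15 were tested in untreated cells, where 0 were called higher (1.16% of all genes were) and 2 were called lower (1.97% of all genes were) with edgeR: the alarmin IL33 (log2 fold change -2.05 ± 0.24, adjusted p = 3.97e-05) and TNFSF10, the death ligand TRAIL (-2.21 ± 0.54, adjusted p = 0.0176). DESeq2 called IL33 but not TNFSF10, whose highest library had 1.72 normalized CPM. By the adjusted p alone 1 of the 15 was higher and 3 were lower, and the median log2 fold change was -0.37. The third lower gene was IL24, short of 2-fold at -0.95 ± 0.18 (adjusted p = 0.0032 from edgeR). The 1 higher gene was CSF3, the granulocyte growth factor G-CSF, which also fell short of 2-fold. IL24 and CSF3 are named here after their values were seen. CSF3 is given with its levels. It stood at 1014 and 1024 normalized CPM in untreated control libraries and 1399 and 1599 in untreated RBM6-KO1 libraries (log2 fold change 0.54 ± 0.14, adjusted p = 0.0237 from edgeR), and after IR the value was 0.73 ± 0.18 (adjusted p = 0.144). After IR 0 of 15 were called between genotypes with edgeR or DESeq2, and 4 had an unadjusted p under 0.05 with edgeR. IL33 rose after IR in RBM6-KO1 cells (1.08 ± 0.26, adjusted p = 0.0455 from edgeR), where 1.13% of all genes were called higher. In control cells its IR value was -0.08 ± 0.32 (adjusted p = 0.899 from edgeR). The interaction term of IL33 was 1.17 ± 0.49 at an unadjusted p of 0.0363 from edgeR, and it did not pass after adjustment. A difference in the IR response of IL33 between the genotypes is therefore not shown. IL1A and IL1B, which induce ELR chemokines in epithelia, are named here after their values were seen. Their log2 fold changes were -0.09 ± 0.14 and -0.15 ± 0.16 between untreated genotypes. The IR values in RBM6-KO1 cells were 0.68 ± 0.16 and 0.82 ± 0.17 (adjusted p = 0.0435 and 0.0342 from edgeR). In control cells they were 0.54 ± 0.16 and 0.49 ± 0.16 (adjusted p = 0.0719 and 0.0912). What part these 2 genes have in the chemokine values was not tested. Of 9 genes for sheddases and IL6 signalling, 1 was called, SOCS3, the feedback inhibitor of IL6 signalling. It was lower in RBM6-KO1 cells untreated (-1.78 ± 0.31, adjusted p = 0.0016 from edgeR) and after IR (-1.94 ± 0.29, adjusted p = 0.0302). Of all genes, 1.97% were called lower untreated and 0.815% after IR.

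The libraries carried the markers of breast epithelium, with 2609 to 3866 normalized CPM summed over 8 markers, most of it KRT5 and ITGB4. Of these 8, EPCAM was called lower in RBM6-KO1 cells, by -1.79 ± 0.22 untreated (adjusted p = 4.43e-05 from edgeR) and -1.82 ± 0.22 after IR (adjusted p = 0.0151). Of all genes, 1.97% were called lower untreated and 0.815% after IR. By the adjusted p alone KRT18 was also lower untreated (-0.63 ± 0.15, adjusted p = 0.0175 from edgeR). KRT14 went the other way, at 0.78 ± 0.19 untreated (adjusted p = 0.0156 from edgeR) and 0.75 ± 0.17 after IR (adjusted p = 0.116). Both are named here after their values were seen. CDH1 was called higher after IR in control cells (1.18 ± 0.23, adjusted p = 0.0162 from edgeR), where 1.68% of all genes were. Summed fibroblast markers were at 80.9 to 107 normalized CPM in control libraries and at 118 to 210 in RBM6-KO1 libraries, nearly all of it DCN, which was called higher after IR (1.11 ± 0.18, adjusted p = 0.0389 from edgeR). COL1A1, the other fibroblast marker tested, was lower, at -0.74 ± 0.24 untreated (adjusted p = 0.0864 from edgeR) and -1.17 ± 0.22 after IR (adjusted p = 0.0612), where DESeq2 called it. Summed leukocyte markers were at 15.3 to 21 in control libraries and at 8.66 to 11 in RBM6-KO1 libraries, mostly CD14, which was called lower in untreated cells (-1.81 ± 0.27, adjusted p = 0.000373 from edgeR). CSF1R, the other leukocyte marker tested there, had 0.78 ± 0.33 (adjusted p = 0.205 from edgeR). ITGAM, called higher after IR in control cells, had at most 23 counts. Of the defining markers of these other cell types, COL3A1 had at most 1 count in any library, PTPRC at most 2 and CD3E 0, while CSF1R had 36 to 148 and PECAM1 25 to 93. The 3 endothelium markers summed to 1.25 to 2.46 normalized CPM in control libraries and 3.37 to 6.32 in RBM6-KO1 libraries, nearly all of it PECAM1, with log2 fold changes of 1.16 ± 0.36 untreated (adjusted p = 0.0681 from edgeR) and 1.56 ± 0.32 after IR (adjusted p = 0.0865). What part these marker levels have in the chemokine values was not tested.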

How the data were processed

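The authors prepared TruSeq mRNA libraries, sequenced pairs of 150 bases, aligned them to hg38 and deposited a table of raw, unnormalized counts by Ensembl identifier for all 8 libraries. The submitters' processing notes name STAR and DESeq2. The counting tool, its annotation and its strand setting are not given in the sources used here. Total counts per library, from 15355281 to 29832009, set the precision.

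The deposited counts were fitted with edgeR 4.0.16 and limma 3.58.1 in R 4.3.3 (TMM, filterByExpr, quasi-likelihood test, each comparison on its own 4 libraries, the interaction on all 8), with Benjamini-Hochberg adjustment over all genes tested. The SE is the log2 fold change divided by the square root of F. Tests were checked on simulated counts. Symbols and positions are from GENCODE v44, which matched 57392 of 58233 identifiers, and promoters from RefSeq (GRCh38.p14). Replicates are labelled as biological, with n = 2 per group.

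The genes, the lists and the tests were chosen with earlier results of these data known. Named are all 10 genes, every list gene called in at least 1 of 5 tests, the most abundant markers, and the 5 genes most correlated with CXCL8 (mean of at least 5 CPM), of which 1 is not reported here; the exceptions are stated. Alternatives were DESeq2 1.42.0, its size factors, upper-quartile normalization, no filter, at least 10 counts in every library, adjusted p alone, a replicate block, 1 fit of all 8 libraries, and each library left out.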

Additional observations from a re-analysis of the deposited data

How the results depend on the processing

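The number of the 10 genes called between untreated genotypes was 5 with the adjusted p alone, against 3. The number called after IR in RBM6-KO1 cells ranged from 0 to 1 with libraries left out. With 1 library left out, the lone library of its group is assumed to vary like the others. Values that changed sign did so around 0: after IR in RBM6-KO1 cells CXCL1 ranged from -0.14 to 0.03 and CXCL3 from -0.15 to 0.10 on the log2 scale, and the interaction ranged from -0.01 to 0.26 for CXCL2 and from -0.20 to 0.46 for CXCL16. Between genotypes no value changed sign in 72 untreated and 72 irradiated results of the 6 genes (67 and 59 kept their side of the threshold). These results reuse the same libraries. With the adjusted p alone the log2 fold changes are those of the main fit, so their sign could not change.

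The letters A and B name the replicates, and the labels do not say whether libraries with the same letter were paired. Deviations of A from B correlated at 0.21 between untreated genotypes and 0.69 between irradiated ones. Between untreated and irradiated libraries of a genotype they correlated at -0.47 and -0.60. The main tests used no pairing. With a replicate block CXCL8 and CXCL16 also passed between genotypes after IR (1.35, adjusted p = 4.45e-06, and -1.06, adjusted p = 0.0038, from edgeR), so that 6 genes were called against 4, and 541 of all genes against 182. With the letters crossed between untreated and irradiated cells, added after the data were seen, 965 of all genes were called after IR in control cells and 1222 in RBM6-KO1 cells.

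Over all genes, calls between untreated genotypes numbered 486, and 952 with the adjusted p alone. After IR the 182 calls became 280 with DESeq2, 506 with no filter, 71 with at least 10 counts in every library, 340 with all 8 libraries in 1 fit and 169 to 477 with libraries left out. In control cells the 553 IR calls became 962 with no filter, 881 with the adjusted p alone and 287 to 1406 with libraries left out, and in RBM6-KO1 cells the 485 became 1011, 884 and 289 to 1563. With no filter 1 gene was called for the interaction. The causes were not tested. CXCL5, IL6, CX3CL1 and CCL2 are limited by depth.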
